A study of Saccharomyces cerevisiae with 10 samples.

Results

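Of the 3515 merged ATAC-seq peaks of these yeast populations, 225 (6.40%) had a low on Day 7. These peaks had a log2 ratio of the Day 7 mean to the Day 3 mean of at most -0.3, and a log2 ratio of the Day 7 mean to the Day 10 mean of at most -0.5, in the deposited normalized counts (means of 2 libraries). They were chosen by these Day 3, Day 7, and Day 10 values, so comparisons that use one of these days are given as a description, with no test. The values of Day 0 and Day 28 took no part in the choice, and the question whether both days have the same level at these peaks was tested. The rule asks for Day 10 above Day 7, however, and Day 28 lay near Day 10 (median log2 ratio of -0.04). The Day 28 side of that test is therefore not free of the choice.

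The cells were haploid WP35 yeast with a MATalpha W303 background, revived from frozen stocks of 5 days of 1 evolution replicate, L3. The labels give the genotype HO::HIS3::pGAL1-YFP, whereas the methods name HIS5 as the marker beside the reporter, and they add mutant alleles of LEU2, TRP1, URA3, ADE2, HIS3, and CAN1. The reporter is a yellow fluorescent protein under the promoter of GAL1, at the ho locus. In the original experiment, cells of low reporter expression were sorted up to Day 7 (Day 3 and Day 7 are under selection) and were not selected afterwards (Day 10 and Day 28), while Day 0 is the population before evolution. All cultures were grown in synthetic complete media with 0.1% mannose and then with 0.1% mannose and 0.2% galactose, so that medium, strain, and reporter are the same in every group. There were 2 libraries per day and 10 in all, called replicates b and c on Day 0, a and c on Day 7, and 1 and 2 on the other days. Since every library comes from the one evolution replicate, p-values do not measure how far separately evolved populations differ.

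ATAC-seq uses the Tn5 transposase to insert adaptors into DNA that is not covered by nucleosomes or other proteins. In yeast the most accessible sites are the nucleosome-depleted regions at promoters, where transcription factors and the transcription machinery bind. Coding regions and gene ends are packed into nucleosomes and give less signal, although nucleosomes are displaced in genes that are transcribed strongly. A lower count in a peak can come from fewer cells with an open site or from less open chromatin per cell, and these cannot be told apart in a population.

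A library had between 4748625 and 18693542 counts over all peaks, and the lowest count of any of the 225 peaks in any library was 86. The 225 peaks took 1.92% and 1.54% of the counts at Day 0, 1.55% and 1.47% at Day 3, 1.03% and 1.08% at Day 7, 2.16% and 2.64% at Day 10, and 2.40% and 2.02% at Day 28. The 351 most abundant peaks took between 33.2% and 39.1% of the counts in the libraries of Day 0, Day 10, and Day 28, and between 42.0% and 44.0% in those of Day 3 and Day 7. The part of this concentration of reads in the Day 7 low was not tested. Across all peaks the log2 ratio of Day 7 to Day 10 had a correlation of 0.74 with log2 peak abundance, the ratio of Day 7 to Day 3 one of 0.23, and the ratio of Day 28 to Day 0 one of -0.28. These are descriptions over 3515 peaks that share libraries.

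The deepest lows were inside genes. The next lines give the central bases of 5 of the deepest peaks, in which the accessible stretch is mostly or wholly coding sequence and not a promoter. They do not stand for the whole set, of which 103 peaks (45.8%) were wholly coding. Another 91 (40.4% of the set, in part the same peaks) were annotated to promoters or transcription start sites. They are read from RefSeq assembly R64, 5′ to 3′ on the strand of the gene that they lie in, with annotated coding bases in capitals and other bases in lower case. The TIR4 window is chrXV:345370-345669 on the plus strand, the FLO10 window chrXI:648164-648384 on the plus strand, the WSC3 window chrXV:115063-115362 on the minus strand, and the GAL2 window chrXII:291449-291748 on the plus strand. The window of the peak that the annotation assigned to RPL19A is chrII:413698-413997 on the plus strand, where 284 of 300 bases are the end of the MIS1 coding sequence.
TIR4: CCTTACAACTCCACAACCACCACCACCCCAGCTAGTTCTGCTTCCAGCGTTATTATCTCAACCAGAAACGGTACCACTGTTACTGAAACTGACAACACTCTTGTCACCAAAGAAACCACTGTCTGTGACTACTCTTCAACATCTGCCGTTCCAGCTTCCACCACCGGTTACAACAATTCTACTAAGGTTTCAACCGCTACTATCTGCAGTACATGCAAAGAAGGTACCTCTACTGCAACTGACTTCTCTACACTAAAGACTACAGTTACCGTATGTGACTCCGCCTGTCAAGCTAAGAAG
FLO10: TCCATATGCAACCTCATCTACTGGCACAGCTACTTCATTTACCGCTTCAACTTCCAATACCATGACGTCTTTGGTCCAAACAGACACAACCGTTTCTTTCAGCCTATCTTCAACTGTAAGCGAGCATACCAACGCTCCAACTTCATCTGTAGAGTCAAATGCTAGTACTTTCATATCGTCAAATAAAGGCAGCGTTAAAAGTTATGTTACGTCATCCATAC
WSC3: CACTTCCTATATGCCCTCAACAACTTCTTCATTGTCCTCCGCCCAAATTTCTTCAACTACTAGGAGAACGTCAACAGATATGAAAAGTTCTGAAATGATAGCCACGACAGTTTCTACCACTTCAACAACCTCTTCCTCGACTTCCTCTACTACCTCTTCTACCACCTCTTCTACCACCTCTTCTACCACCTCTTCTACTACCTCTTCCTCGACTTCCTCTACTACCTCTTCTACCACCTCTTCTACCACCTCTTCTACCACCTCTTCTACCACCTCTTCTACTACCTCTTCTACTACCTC
GAL2: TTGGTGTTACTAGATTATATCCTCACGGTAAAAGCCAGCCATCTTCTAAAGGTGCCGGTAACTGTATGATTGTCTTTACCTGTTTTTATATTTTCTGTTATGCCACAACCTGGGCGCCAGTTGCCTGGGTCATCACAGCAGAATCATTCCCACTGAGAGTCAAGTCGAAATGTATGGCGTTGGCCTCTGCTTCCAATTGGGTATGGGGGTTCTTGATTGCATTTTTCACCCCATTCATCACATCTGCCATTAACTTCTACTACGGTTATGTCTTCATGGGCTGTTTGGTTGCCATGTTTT
RPL19A: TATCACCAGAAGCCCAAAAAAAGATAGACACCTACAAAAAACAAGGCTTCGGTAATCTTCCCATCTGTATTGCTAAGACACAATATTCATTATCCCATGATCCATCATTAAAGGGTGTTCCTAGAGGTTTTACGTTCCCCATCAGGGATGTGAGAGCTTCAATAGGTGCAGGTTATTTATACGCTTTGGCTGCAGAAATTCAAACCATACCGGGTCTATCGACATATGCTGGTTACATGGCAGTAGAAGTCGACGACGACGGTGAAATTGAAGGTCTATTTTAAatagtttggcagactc

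The set was spread over all chromosomes, from 3.14% of the peaks of chromosome V to 14.7% of those of chromosome III, and 24 of its peaks (10.7%, against 6.80% of all peaks) lay within 30 kb of a chromosome end. Its 225 peaks were assigned to 216 units, of which 9 had 2 of the peaks. Their mean normalized count over the 10 libraries was lower than that of all peaks, with medians of 688 and 1914, and so was the count per kb of peak, with medians of 1557 and 2206. When all peaks were sorted by mean count into 4 groups of like size, 164 of the set were in the lowest, 41 in the next, 18 in the third, and 2 in the highest.

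Across the set the median log2 ratio was -0.50 for Day 7 to Day 3 and -0.88 for Day 7 to Day 10, and the lowest values were -1.70 and -2.34. In all 225 peaks both Day 7 libraries lay below all Day 3 and Day 10 libraries, which was the case for 23.2% of all peaks. In 222 both Day 7 libraries lay below all 8 others (19.2% of all peaks). The exceptions, named after their values were seen, were STU2, FRE5, and CTR1, where Day 0 replicate c lay below at least 1 of the Day 7 libraries. The rule used these values, so nothing is read from these numbers. Each of the 2 log2 ratios was also corrected by loess, a local regression, for its trend with the mean log2 level of its 2 days. After that 103 peaks met the rule, of which 87 were among the 225 (42 promoter-TSS, 30 TTS, 14 exon, and 1 intergenic).

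The Day 7 level was also below that of Day 0, which the rule did not use. The median log2 ratio of Day 7 to Day 0 was -0.55, it was below 0 in 225 of 225 peaks (51.0% of all peaks), and it was at most -0.3 in 194 (13.5% of all peaks). The Day 3 means were near those of Day 0, with a median log2 ratio of 0.02 and 105 peaks below 0 (46.7%, against 49.6% of all peaks). The Day 10 means were above Day 0, with a median of 0.39, 147 peaks at 0.3 or more (65.3%, against 10.3% of all peaks), and 9 below 0 (53.0% of all peaks). In 219 of the peaks (97.3%, against 51.3% of all peaks) Day 10 was above Day 3. In 202 (89.8%, against 65.0%) Day 28 was nearer to Day 10 than to Day 0. The median log2 ratio of Day 28 to Day 10 was -0.04. These ratios share a day with the rule and have no test.

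Single libraries gave the same order. Relative to the Day 0 mean, the median log2 level of the 225 peaks was 0.11 and -0.12 in the Day 0 libraries and 0.02 and 0.04 in those of Day 3. It was -0.54 in both libraries of Day 7, 0.27 and 0.53 at Day 10, and 0.45 and 0.27 at Day 28. The libraries of Day 7 were alike, whereas the libraries within Day 0, within Day 10, and within Day 28 differed from each other. The median over all peaks stayed between -0.02 and 0.01 in each library.

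**Figure D1:**
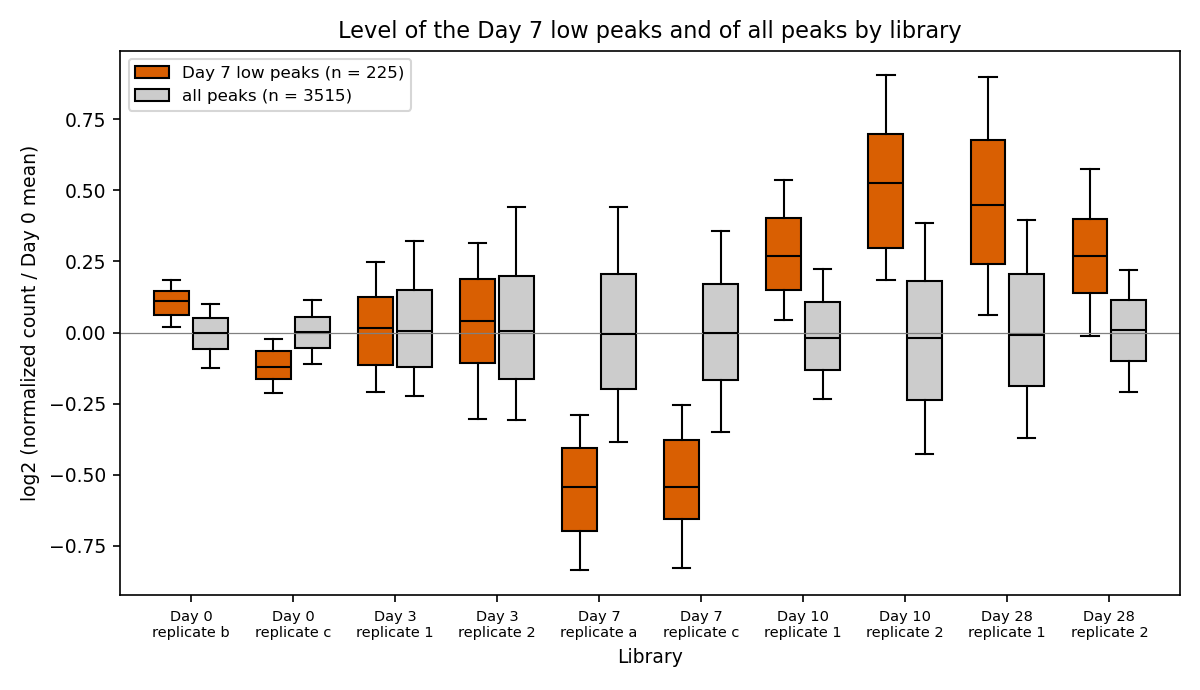
Log2 of the normalized count over the Day 0 mean, by library, for the 225 Day 7 low peaks and for all 3515 peaks. Lines are medians, boxes the middle 50% of the peaks and whiskers the 10th to 90th percentiles. The median of the Day 7 low peaks is -0.54 in both Day 7 libraries and between 0.27 and 0.53 in the libraries of Day 10 and Day 28.

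Just inside the thresholds were STU2, which encodes a microtubule-associated protein, YPL038W-A, and ADR1, a transcription factor of glucose-repressed genes. Their log2 ratio of Day 7 to Day 3 was -0.30 each, and those of Day 7 to Day 10 were -0.78, -0.55, and -0.62. Just outside were HED1 (-0.30 and -0.95), YDR341C (-0.35 and -0.50), and YRO2 (-0.41 and -0.50). Peaks on either side of the limits thus differed little.

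**Figure D2:**
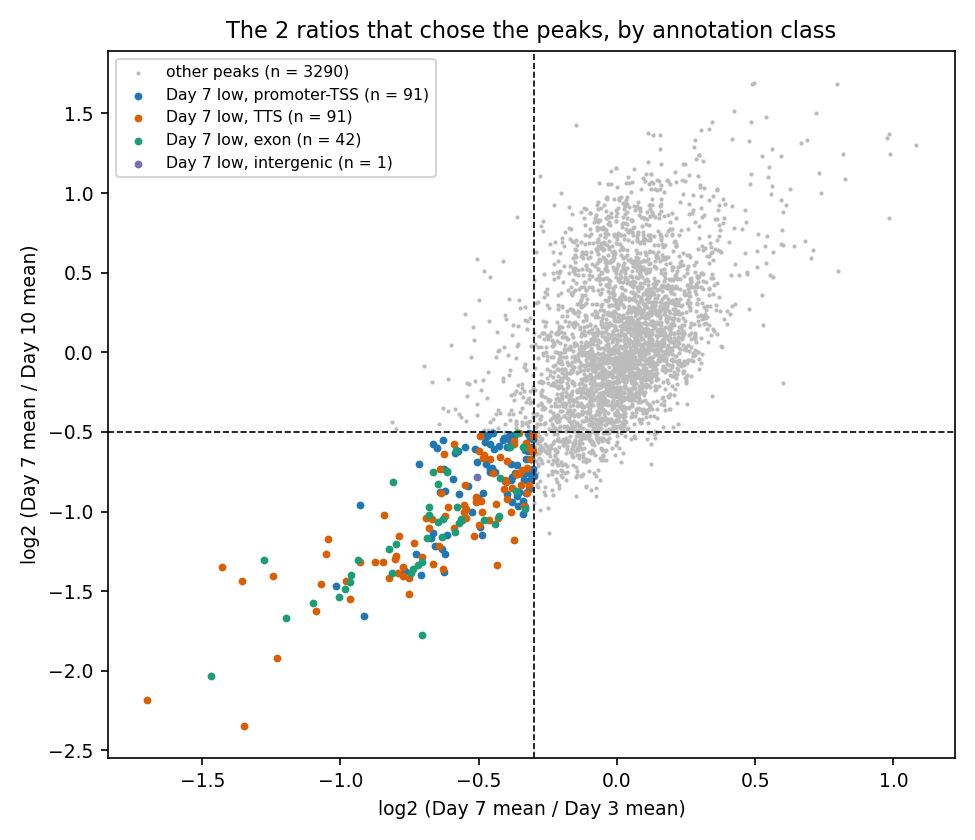
Log2 ratio of Day 7 to Day 3 (x axis) and of Day 7 to Day 10 (y axis) for all 3515 peaks, with the 225 Day 7 low peaks colored by annotation class. Dashed lines mark the limits of -0.3 and -0.5. The peaks farthest from the limits, TIR4 and YDR261C-C, are annotated to gene ends (TTS).

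The set differed from all peaks in its place in the gene. By the annotation that the authors deposited, 91 of the peaks (40.4%) were at promoters or transcription start sites (promoter-TSS), 91 (40.4%) at transcription termination sites (TTS), and 42 (18.7%) in exons. Among all peaks these shares were 85.4%, 10.7%, and 3.24%. The set held 3.03% of all promoter-TSS peaks, 24.2% of all TTS peaks, and 36.8% of all exon peaks. Only 1 peak was intergenic, near CSS1, and it was named after its values were seen. The opposite rule, a Day 7 high of at least 0.3 over Day 3 and 0.5 over Day 10, took 100 peaks, of which 82 were promoter-TSS, 11 TTS, and 7 exon.

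The position on the genome gave a similar picture without the class names. A median of 89.9% of the bases of a Day 7 low peak were coding, against 46.8% over all peaks, and 103 (45.8%) lay wholly in coding sequence, against 4.75%. Those 103 were 61.7% of the 167 wholly coding peaks. The other 64 wholly coding peaks had median log2 ratios of -0.17 for Day 7 to Day 3 and -0.37 for Day 7 to Day 10. The start of an annotated gene lay in 60 of the set (26.7%), against 78.2% of all peaks. Of the 103 peaks inside 1 gene, 54 lay in the gene they were assigned to and 49 in another gene, so that the assigned name is often that of a neighbor.

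The promoter-TSS peaks of the set had less deep lows than the others. Their median log2 ratios were -0.44 for Day 7 to Day 3 and -0.75 for Day 7 to Day 10, while the TTS peaks had -0.52 and -0.98 and the exon peaks -0.67 and -1.07. The medians of all promoter-TSS peaks were 0.01 and 0.02, those of all TTS peaks -0.14 and -0.25, and those of all exon peaks -0.20 and -0.43. Over all TTS and exon peaks the medians were thus also below 0, by less than in the set.

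The peaks were short and often detected on few days. Their median length was 464 bp (868 bp for all peaks), and their median GC content was 41.4% (38.4%). In the deposited peak names, 71 of the 225 were detected as peaks on Day 0, 88 at Day 3, 55 at Day 7, 207 at Day 10, and 162 at Day 28. Only 51 (22.7%) were detected on all 5 days, against 77.1% of all peaks, and 70 on 1 day, which was Day 10 for 53 of them and Day 28 for 15. A region not detected on any day is not in the table, so regions like these that were low on every day could not enter the set.

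**Figure D3:**
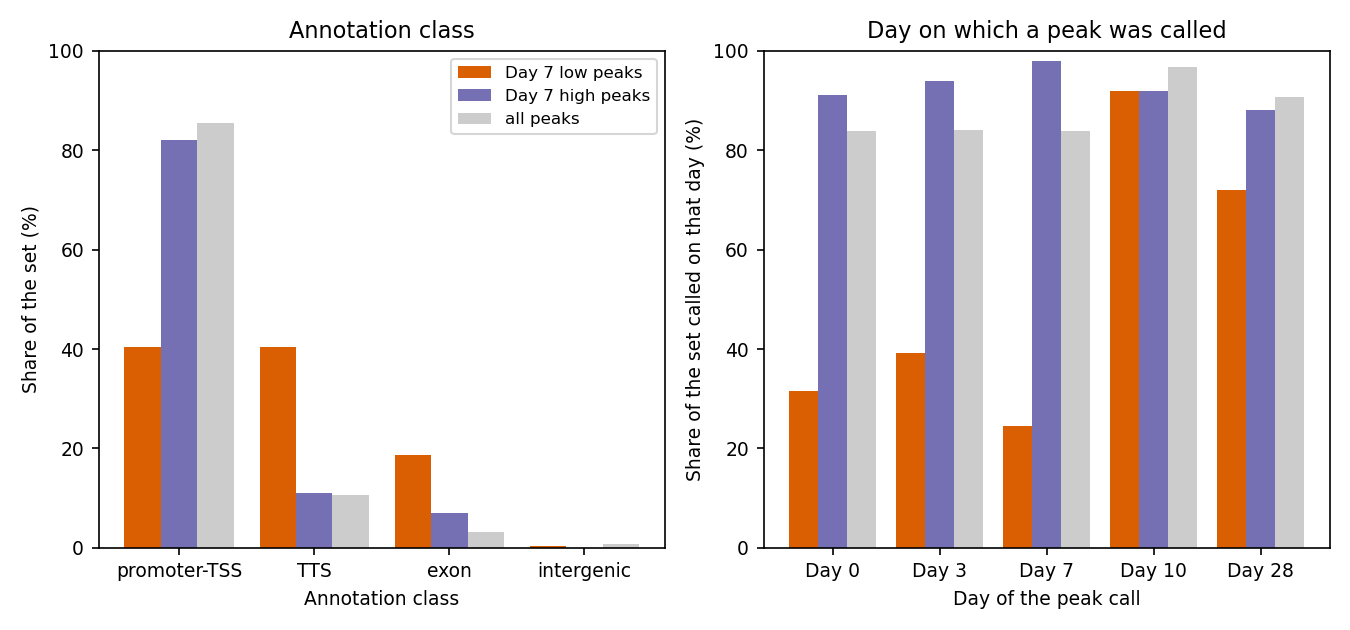
Left, share of the 225 Day 7 low peaks, of the 100 Day 7 high peaks, and of all 3515 peaks in each annotation class (%). Right, share of the same sets that was detected as a peak on each day (%). TTS and exon classes hold 40.4% and 18.7% of the Day 7 low peaks against 10.7% and 3.24% of all peaks, and 24.4% of the Day 7 low peaks were detected on Day 7 against 92.0% on Day 10.

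Of the assigned units, 195 were mRNA genes, 25 tRNA genes, 2 snoRNA genes, 1 another noncoding RNA, and 2 transposon or pseudogene entries. tRNA genes are short, are transcribed by RNA polymerase III, and are kept free of nucleosomes by its factors. The 25 tRNA peaks were 13.2% of the 189 peaks of such genes, and 19 of them covered the start of an annotated gene. Their median log2 ratios were -0.55 for Day 7 to Day 3 and -0.61 for Day 7 to Day 10, where all tRNA peaks had -0.18 and -0.06. After loess, 11 of the 25 still met the rule.

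Motifs were counted on both strands in the 300 bases around the midpoint of each peak. In peaks shorter than 300 bp this window takes in flanking bases, which was more often the case in the set. The first quartile of length was 272 bp in the set and 550.5 bp over all peaks. A TATA box (TATAAA) was in 24.9% of the set and in 37.0% of all peaks, a run of 10 A in 4.89% and 11.4%, the Reb1 motif (TTACCCG) in 0.889% and 6.06%, and the Abf1 motif in 8.44% and 15.5%. The stress response element (AGGGG) was in 17.3% and 23.2%, the Ste12 motif (TGAAACA) in 7.11% and 6.91%, the Gcn4 motif (TGACTCA) in 1.78% and 2.50%, the E box (CACGTG) in 1.33% and 3.95%, and the Rgt1 motif (CGGANNA) in 32.9% and 31.1%. The Rap1 motif (ACCCANACA) was in 1.78% and 1.93%, the Gal4 motif in 0.889% and 2.08%, and the URS1 motif (TAGCCGCC) in 0 peaks of the set and 1.45% of all. The motifs that are usual in nucleosome-depleted promoters (TATA box, runs of A, Reb1, and Abf1) were each less frequent in the set, which also held more coding sequence. A match is only a stretch of letters in these windows.

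The 12 deepest peaks, by the mean of both log2 ratios, were assigned to YDR261C-C, TIR4, FLO10, LRE1, CLA4, YFL067W, GAL2, RPL19A, WSC3, PAU17, IMD2, and YNL170W. Of these, 9 were wholly coding. TIR4 encodes a cell wall mannoprotein that is made under anaerobic conditions. Its peak on chromosome XV (345286 to 345753) lies in the TIR4 gene (344335 to 345798) and had 507 and 328 normalized counts at Day 0, 457 and 541 at Day 3, 207 and 185 at Day 7, 831 and 1156 at Day 10, and 1230 and 764 at Day 28. The libraries of Day 10 and Day 28 were above all those of Day 0 and Day 3, and Day 7 was the lowest.

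FLO10 encodes a flocculin, a lectin-like wall protein of cell adhesion. Its deeper peak (chromosome XI, 648164 to 648384, in the gene from 646356 to 649865) had 196 and 174 normalized counts at Day 0, 254 and 303 at Day 3, 93 and 108 at Day 7, 339 and 482 at Day 10, and 420 and 385 at Day 28. Its other peak, from 646963 to 647454, had 474 and 385 at Day 0, 565 and 641 at Day 3, 302 and 309 at Day 7, 787 and 925 at Day 10, and 1041 and 771 at Day 28. In both peaks Day 7 was lowest, Day 3 was above Day 0, and Day 10 and Day 28 overlapped above them.

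GAL2 encodes the galactose permease, and its gene (chromosome XII, 290212 to 291936) holds a peak from 291415 to 291782 near its end. That peak had 771 and 652 normalized counts at Day 0, 676 and 665 at Day 3, 243 and 256 at Day 7, 544 and 727 at Day 10, and 616 and 551 at Day 28. Unlike the other 11 deepest peaks, both Day 28 libraries lay below both Day 0 libraries here. The promoter peak of GAL2 (289108 to 290690) was not in the set, with log2 ratios of -0.46 for Day 7 to Day 3 and 0.19 for Day 7 to Day 10, against -1.43 and -1.35 in the gene.

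LRE1 encodes a protein of cell wall integrity signaling. Its peak (chromosome III, 37132 to 37387) had 378 and 268 normalized counts at Day 0, 342 and 390 at Day 3, 153 and 160 at Day 7, 509 and 673 at Day 10, and 646 and 475 at Day 28. CLA4 encodes a p21-activated kinase of bud growth, and its peak (chromosome XIV, 70248 to 70598) had 413 and 347 at Day 0, 413 and 494 at Day 3, 183 and 212 at Day 7, 509 and 747 at Day 10, and 787 and 570 at Day 28. In both, the libraries of Day 0 and Day 3 lay between the Day 7 low and the later days. WSC3 encodes a sensor of cell wall stress, and its peak (chromosome XV, 114944 to 115480) had 629 and 504 at Day 0, 610 and 699 at Day 3, 294 and 317 at Day 7, 749 and 1068 at Day 10, and 1029 and 730 at Day 28. The order of the days was the same as in LRE1.

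IMD2 encodes an inosine monophosphate dehydrogenase of guanine nucleotide synthesis. Its peak (chromosome VIII, 555221 to 555451) had 335 and 237 normalized counts at Day 0, 469 and 557 at Day 3, 211 and 213 at Day 7, 475 and 572 at Day 10, and 508 and 457 at Day 28, so that Day 3 overlapped with the later days. The peak assigned to PAU17 (chromosome XII, 95620 to 95791) lies in SSA2, which encodes an Hsp70 chaperone, and had 213 and 226 at Day 7 against 383 to 623 in the other libraries. The peak assigned to RPL19A (chromosome II, 413653 to 414042) lies for 84.4% of its length in MIS1, a mitochondrial folate enzyme, and had 296 and 270 at Day 7 against 472 to 1011 elsewhere. The peak assigned to YNL170W (chromosome XIV, 315093 to 315413) lies in APC1, a subunit of the anaphase-promoting complex, and had 176 and 201 at Day 7 against 299 to 709 elsewhere.

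The remaining members of the 12 contain repeated sequence. YDR261C-C is a Ty1 retrotransposon reading frame, and 20.3% of the 100-base windows of its peak (chromosome IV, 987439 to 987660) occur elsewhere in the genome. It had 71 and 72 normalized counts at Day 7 against 134 to 387 elsewhere, and its Day 3 libraries differed, with 305 and 158. YFL067W is a reading frame close to the end of chromosome VI (peak from 800 to 1500), with 38.5% such windows, and had 412 and 381 at Day 7 against 517 to 1212 elsewhere. Reads of such windows can come from other copies.

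**Figure D4:**
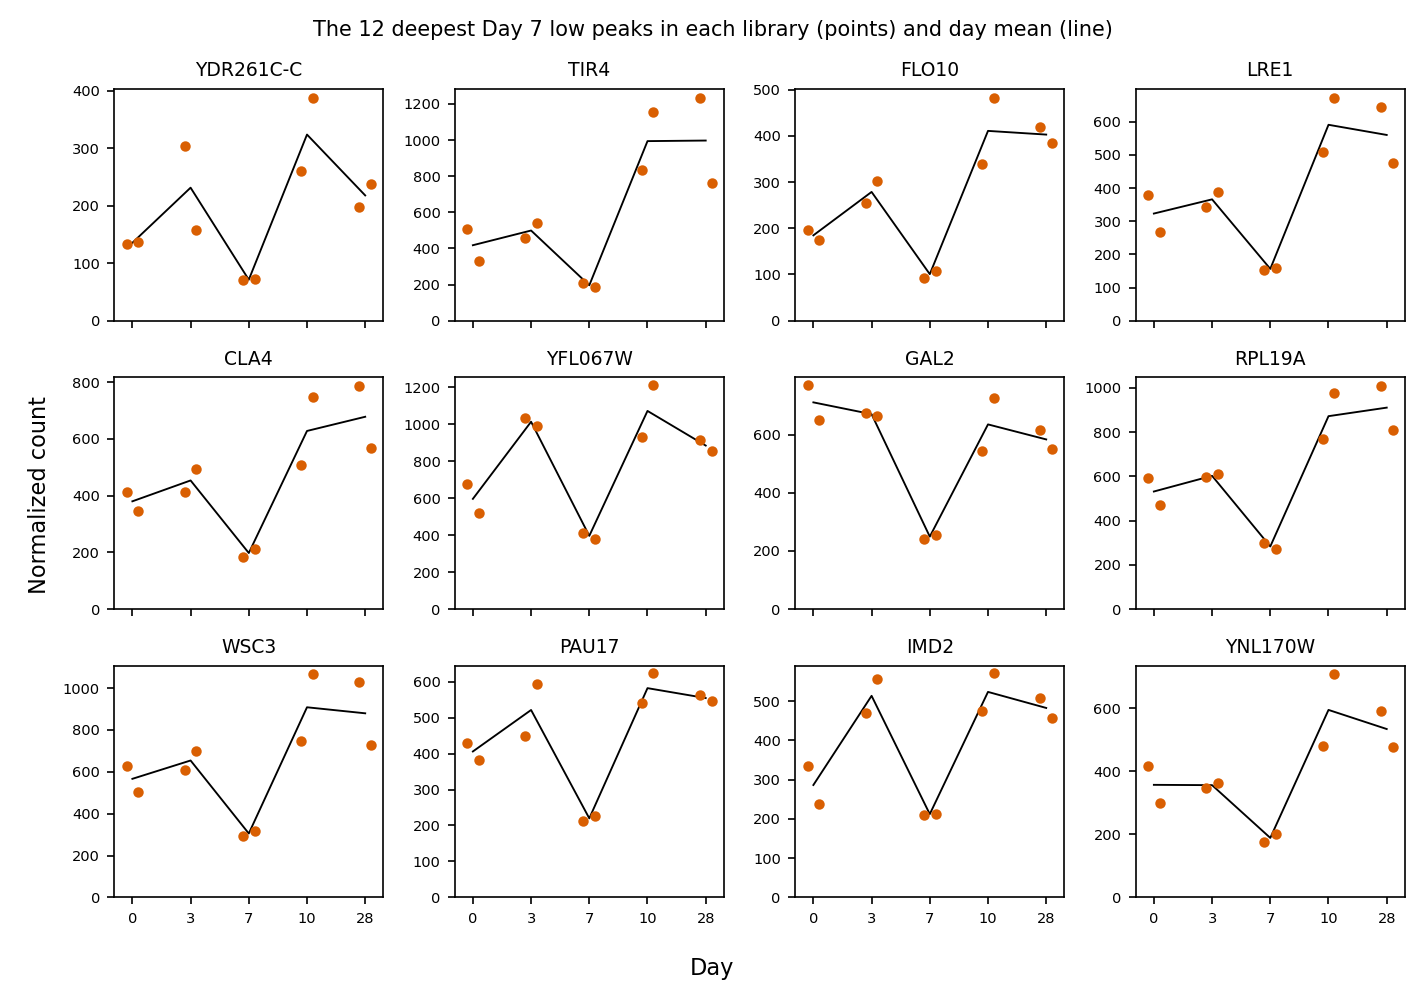
Normalized counts of the 12 deepest Day 7 low peaks by day, with a point per library and a line through the day means. The axes start at 0. In each panel both Day 7 points are below all Day 3 and Day 10 points, and in the GAL2 panel the Day 28 points, 616 and 551, are below those of Day 0, 771 and 652.

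For 63 of the assigned units there was also a promoter-TSS peak outside the set, and the units had 68 peaks in the set. Those 63 promoter peaks had median log2 ratios of -0.04 for Day 7 to Day 3 and -0.09 for Day 7 to Day 10, and the 68 peaks had -0.58 and -0.97. At FLO10 the promoter peak had -0.01 and -0.08, at CLA4 -0.36 and -0.21, and at IMD2 -0.31 and -0.31. At WSC3 the promoter peak had 0.26 and 0.41, higher on Day 7 than on both days. TEF1, which encodes the translation elongation factor eEF1A, was named after its values were seen, with -0.11 and 0.55 at the promoter and -0.98 and -1.44 in the peak at its end. These promoter peaks were taken from outside the set and so had missed the rule that the 68 had met, which fixes that their lows are less deep. Of the 63, 25 were below both days on Day 7.

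Gene lists were matched to the assigned units. Flocculins had 9 peaks, of which 5 were in the set (2 of FLO10, 2 of FLO11, and 1 of FLO5), all in coding sequence. The promoter peaks of FLO9, FLO5, and FLO10 and an intergenic peak near FLO5 were not. TIR, DAN, and PAU mannoproteins, most of which are made without oxygen, had 15 peaks with 8 in the set (TIR4, DAN1, DAN4, PAU7, PAU12, PAU23, and 2 of PAU17). The DAN1 and DAN4 peaks both lie in the DAN4 gene. Mating genes had 4 of 14 peaks in the set, which were FUS1 (cell fusion), STE5 (the scaffold of the pheromone pathway, with the peak in SPO71), SST2 (a regulator of the G protein), and AGA1 (agglutinin). Iron, copper, and zinc uptake had 3 of 18, which were CTR1 (a copper transporter), FRE5 (a reductase homolog), and FET4 (an iron transporter).

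The other lists held few peaks of the set. Glycolysis had 2 of 12 (HXK2, a hexokinase, and TDH3, glyceraldehyde-3-phosphate dehydrogenase), and the GAL network had 1 of 5 (GAL2). Hexose transporters and sensors had 1 of 10 (SNF3, a glucose sensor, with a peak mostly in SEC31), phosphate genes 1 of 13 (PHO3, an acid phosphatase), permeases 1 of 20 (DAL4, an allantoin permease), heat shock genes 1 of 18 (HSP30), and histones 1 of 6 (HTA2, with the peak in UTP20). Meiosis and sporulation genes had 0 of 18. After loess on abundance, 4 of the 5 flocculin peaks, 5 of the 8 TIR, DAN, and PAU peaks, 2 of the 3 metal uptake peaks (not FET4), and 1 of the 4 mating peaks (FUS1) still met the rule. Those of GAL2, SNF3, DAL4, and HSP30 did as well, and those of HXK2, TDH3, PHO3, and HTA2 did not. The set took 6.40% of all peaks, and the lists were written with earlier results known, so that no test was made on them.

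Day 28 was then compared with Day 0 by edgeR's quasi-likelihood test on the raw counts of the 4 libraries, with Benjamini-Hochberg adjustment over 3515 peaks and calls at an adjusted p under 0.05. The days differed at part of the set. Its peaks share these 4 libraries, so they are not separate replicates of the day difference. That the rule asks for Day 10 above Day 7, and that Day 28 lay near Day 10, also bears on the counts. Of the 225 peaks, 66 (29.3%) were higher on Day 28, against 4.52% of all peaks, and 1 (0.444%) was lower, against 4.3% of all peaks. The set therefore held 41.5% of the 159 peaks that rose, while 93 of the 3290 peaks outside it (2.83%) rose. The median log2 fold change was 0.34, against 0.01 over all peaks, and 207 of 225 values were above 0. In either direction 8.82% of all peaks were called. The table holds a peak only if it was detected on some day, and 97 of the set were detected on Day 28 and not on Day 0 while 6 were detected on Day 0 and not on Day 28. Of these 97, 41 were called higher, a count that their detection bears on. Among the 65 detected on both days, 18 were higher (27.7%, against 3.63% of the 2838 such peaks in all) and 0 lower, with a median of 0.25. This split was chosen after seeing the data.

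The calls depend on single libraries. Without Day 0 replicate c, 3 of the 225 peaks were called higher (TIR4, the FLO10 peak from 646963, and CTR1), and without Day 28 replicate 1, 23 were, while the median log2 fold changes were 0.23 and 0.27. Without Day 28 replicate 2, 110 were. Of the 87 peaks that also met the rule after loess, 44 were higher and 0 lower, with a median of 0.46. Both libraries of Day 28 came from 2 sequencing runs and both of Day 0 from 1, a difference that cannot be told apart from that of the days.

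In 171 peaks (76.0%) the Day 28 libraries did not overlap with those of Day 0 and were higher, which was the case for 28.3% of all peaks. They were lower without overlap in 10 (4.44%), against 26.7% of all peaks. A peak was taken to have the same level where the 95% interval of its log2 fold change lay within -0.5 and 0.5. This was met by 59 of the set (26.2%) and by 72.1% of all peaks. With bounds of 0.3 it was met by 8 of the set and by 24.9% of all peaks. Of the 59 peaks within 0.5, 1 was also called. An interval within the bounds can also leave out 0, as at PHO3 (0.10 to 0.48). For 100 of the set (44.4%) the difference was neither called nor within 0.5, so that these data leave the answer undecided. The standard errors were larger than usual, with a median of 0.16 against 0.11 over all peaks, at lower counts.

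**Figure D5:**
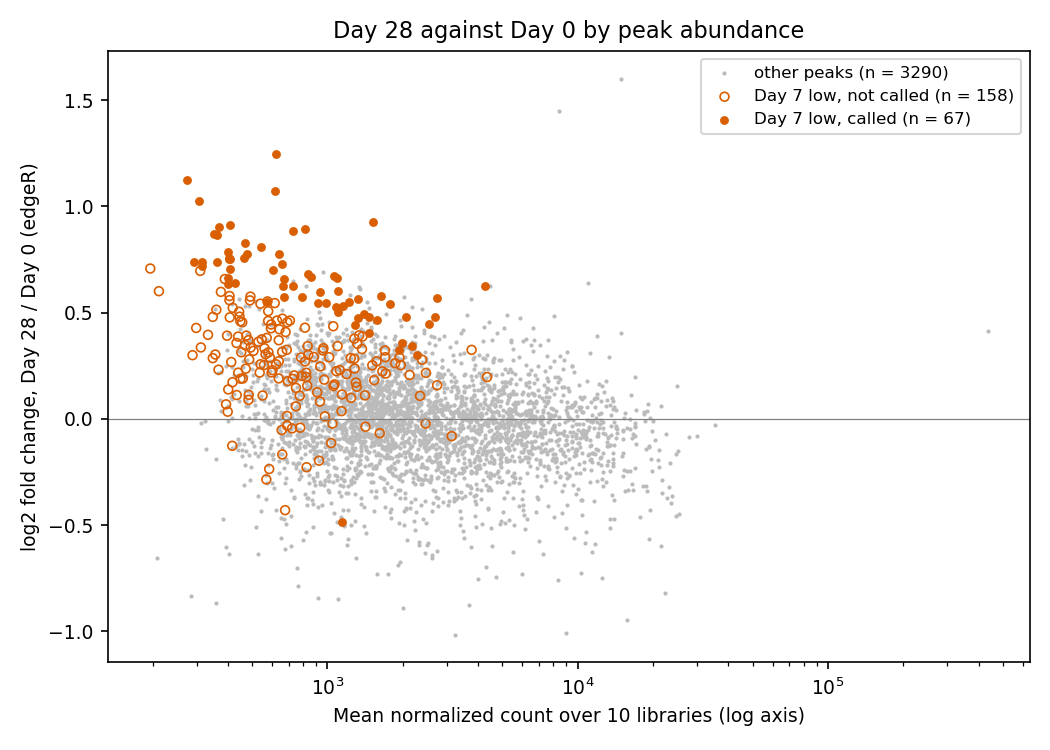
Log2 fold change of Day 28 over Day 0 from edgeR against the mean normalized count over 10 libraries, on a log axis. Filled points are the 67 Day 7 low peaks called at an adjusted p under 0.05, open points the other 158, and gray points the peaks outside the set. Of the Day 7 low peaks, 207 of 225 lie above 0.

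Since the set is of low abundance, its calls were set beside those of other peaks of similar counts. The groups use the mean over all libraries, and the peaks outside the set had missed the rule. The comparison therefore cannot separate abundance from the choice of the set. In the group of lowest abundance, 43 of 164 peaks of the set (26.2%) were higher on Day 28, against 6 of 715 others (0.839%), and the medians were 0.37 and 0.04. In the next group the shares were 34.1% and 4.42%, and in the third 44.4% and 4.30%. Of the 2 peaks in the group of highest abundance 1 was called. By class, 23 of 91 promoter-TSS peaks, 27 of 91 TTS peaks, and 16 of 42 exon peaks were higher, with medians of 0.32, 0.37, and 0.48. Among all peaks of these classes, 114 of 3001, 28 of 376, and 17 of 114 were higher, with medians of 0.01, 0.02, and 0.16. Of the 103 wholly coding peaks 34 were higher, with a median of 0.44, while of the 64 wholly coding peaks outside the set 1 was higher and 3 were lower, with a median of 0.15.

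The 3 largest rises were in wall protein genes. TIR4 rose by 1.25 on the log2 scale (edgeR, adjusted p = 0.00369, standard error 0.22), and the FLO10 peaks rose by 1.13 (edgeR, adjusted p = 0.00627, standard error 0.22) and 1.07 (edgeR, adjusted p = 0.00277, standard error 0.18). In the rest of the flocculins, FLO11 rose by 0.89 at its peak from 392708 to 393208 (adjusted p = 0.00532 from edgeR) and FLO5 by 0.88 (adjusted p = 0.0118), while the FLO11 peak from 389972 to 390182 was not called (0.55, adjusted p = 0.0628). In all, 4 of the 9 flocculin peaks were higher and 0 were lower, and all 4 were in the set. The median over the 9 was 0.55, against 0.01 over all peaks.

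Among TIR, DAN, and PAU peaks, 4 of 15 were higher and 0 lower, and 3 of the 4 were in the set. They were TIR4, DAN4 (0.75, adjusted p = 0.0299 from edgeR), and PAU7 (0.44, adjusted p = 0.0485). The rest of the members were not called, with log2 fold changes of 0.54 for DAN1, 0.48 for PAU12, 0.47 for PAU23, and 0.45 and 0.29 for PAU17. PAU7 lost its call with DESeq2, with DESeq2 size factors or total counts in edgeR, after loess, and in a fit of all libraries.

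CTR1 had the smallest adjusted p among the members of the lists. Its peak at the promoter (chromosome XVI, 785480 to 786361) had 1271 and 979 normalized counts at Day 0, 1604 and 1358 at Day 3, 990 and 1004 at Day 7, 1701 and 1987 at Day 10, and 2181 and 2075 at Day 28. Day 28 was above all other days, and its rise over Day 0 was 0.93 on the log2 scale (edgeR, adjusted p = 0.000198, standard error 0.11). FRE5 rose by 0.57 (adjusted p = 0.00335 from edgeR), with 2377 and 2055 normalized counts at Day 0 and 3492 and 3079 at Day 28. FET4 was not called (0.23, 95% interval -0.19 to 0.65).

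TDH3 rose by 0.57 at its 3′ end (adjusted p = 0.00376 from edgeR), with 1256 and 1117 normalized counts at Day 0 and 1756 and 1742 at Day 28, and DAL4 rose by 0.36 (adjusted p = 0.0300). DAL4 was not called with DESeq2 (adjusted p = 0.108). HXK2 was not called, with 0.19 and a 95% interval from -0.10 to 0.48, which is within 0.5. The mating genes FUS1 (0.39, adjusted p = 0.0503 from edgeR), STE5 (0.26), AGA1 (0.22), and SST2 (0.11) were not called, and neither were PHO3 (0.29), HSP30 (0.29), HTA2 (0.48), and SNF3 (0.16). SST2, SNF3, and PHO3 had intervals within 0.5, from -0.11 to 0.34, from -0.04 to 0.36, and from 0.10 to 0.48.

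Of the 12 deepest peaks 8 rose, where 29.3% of the set and 4.52% of all peaks did. Besides TIR4 and FLO10 the 8 were CLA4 (0.83), LRE1 (0.79), RPL19A (0.78), IMD2 (0.76), WSC3 (0.63), and YFL067W (0.57), with adjusted p from 0.00957 to 0.0355 (edgeR). The 12 were ranked in part by how far Day 7 lay below Day 10, and Day 28 lay near Day 10. Their count of rises is therefore not free of the choice. IMD2 lost its call after loess (edgeR, adjusted p = 0.0557) and YFL067W with total counts (edgeR, adjusted p = 0.0738). YDR261C-C (0.71, 95% interval 0.12 to 1.29), YNL170W (0.58), and PAU17 (0.45) were not called. GAL2 had -0.29 (standard error 0.16, 95% interval -0.62 to 0.05, adjusted p = 0.294 from edgeR), and was called lower only after loess on abundance (-0.40, adjusted p = 0.0471). The promoter peak of GAL2 had -0.11 (edgeR, adjusted p = 0.575).

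ADR1 was the only peak of the set called lower on Day 28. Its peak near the gene end (chromosome IV, 898735 to 899702) had 1506 and 1500 normalized counts at Day 0, 1146 and 922 at Day 3, 839 and 838 at Day 7, 1232 and 1350 at Day 10, and 939 and 1186 at Day 28. Both Day 0 libraries were above all others, and Day 28 was lower than Day 0 by -0.48 on the log2 scale (edgeR, adjusted p = 0.0168, standard error 0.12). The call was lost with total counts (edgeR, adjusted p = 0.057). It was also lost without Day 0 replicate b, Day 0 replicate c, or Day 28 replicate 1.

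The tRNA peaks of the set were nearer to their Day 0 level than the set as a whole, though not than all tRNA peaks. Their median log2 fold change was 0.25, against 0.34 over the set and 0.01 over all tRNA peaks. Of the 25, 5 were higher on Day 28 and 0 lower, where 10 of all 189 tRNA peaks were higher and 2 lower. Intervals within 0.5 were found for 13 of the 25 and for 72.1% of all peaks, and they also depend on the standard error. Of the 8 peaks of the set with intervals within 0.3, 5 were assigned to tRNA genes. At the 63 promoter peaks of units that also had a peak in the set, 5 were higher and 3 lower on Day 28, with a median of 0.01. Among all 3001 promoter-TSS peaks 114 were higher and 129 lower, also with a median of 0.01. Of the 68 peaks in the set, 19 were higher, with a median of 0.34. The 63 had missed the rule that the 68 had met, so this difference is not free of the choice.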

How the data were processed

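ATAC-seq was measured in 10 libraries, 2 for each of 5 days, which the labels call independent biological replicates and which come from 1 evolution replicate. The authors deposited a table of raw counts of 3515 merged peaks (featureCounts 1.6.3), a table of normalized counts, a signal made by dividing each library's counts by its own size factor, and a table of peak positions with HOMER annotation. Per the labels and methods, reads were trimmed with Trim Galore 0.5.0 and aligned with Bowtie2 2.2.9, peaks were called with MACS2 2.1.1 and merged with bedtools 2.30.0 before counting. The deposited peak names give the days on which a peak was called. DESeq2 1.30.1 is named among the submitters' tools. How duplicate reads were treated is not given in the sources used here. Since the day means of the normalized counts rest on the size factors, the ratios move with how reads are spread over strong and weak peaks, which is why a loess alternative was run.

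Peaks were selected on the deposited normalized counts by the rule given above. The members and gene lists were chosen with earlier results of these data known. Named peaks are the 12 with the lowest mean of both log2 ratios, every member in a gene list, the 3 called members that rose most and those that fell most (at most 3, of which 1 was called), and the 3 peaks just inside and just outside the limits. Printed sequences were taken from the 12, leaving out peaks with over 10% repeated windows of 100 bases. The raw counts of Day 28 and Day 0 were compared in R 4.3.3 with the package edgeR 4.0.16 (quasi-likelihood test, TMM scaling, Benjamini-Hochberg adjustment over 3515 peaks). Its filter on low counts removed 0 peaks. Standard errors and 95% intervals come from that fit. On simulated counts for this comparison over 3515 peaks, 138 of 200 peaks changed by 0.5 (log2) were recovered with 1 false call. The simulation gave every peak the same spread between replicates and had no abundance trend between libraries. It therefore gives no rate of false calls for the real counts.

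Positions are those of the deposited table. They match RefSeq assembly R64, since 3094 of 3097 distances to an assigned start agreed within 2 bases. The assigned units of 3097 of 3515 peaks were matched in RefSeq, and for the rest the deposited name was used. Coding share, GC content, and motifs were computed on R64 in Python 3.11.15. The alternatives were DESeq2 1.42.0, other size factors, total counts, loess on abundance (span 0.3), all libraries in 1 fit, a minimum of 100 counts, other thresholds, and each library left out in turn. For the rule, loess was fitted to the log2 ratios. For Day 28 against Day 0 it was fitted to the log counts of each library.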

Additional observations from a re-analysis of the deposited data

How the results depend on the processing

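The set held 225 peaks. It held 103 after loess on peak abundance (87 shared), 138 with thresholds stricter by 0.1, and 366 with thresholds looser by 0.1, and it held 210 to 254 when a library of Day 3, Day 7, or Day 10 was left out. Of the 66 peaks of the set higher on Day 28, 17 passed an adjusted p under 0.01 in edgeR. When a library was left out, the number ranged from 3 (without Day 0 replicate c) to 110 (without Day 28 replicate 2). DESeq2 called 69 (60 shared) and loess 53 (52 shared). The 1 lower peak became 0 with total counts in edgeR, 0 at an adjusted p under 0.01, and 2 after loess, with a range of 0 to 2 when a library was left out. The 59 peaks with intervals within 0.5 became 25 with total counts, 105 after loess, and 8 with bounds of 0.3, with a range of 13 to 67 when a library was left out. The cause of these changes was not tested.

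Over all peaks, 159 higher and 151 lower peaks became 265 and 262 when all 10 libraries were fitted together, and ranged from 6 to 429 and from 26 to 313 when a library was left out. The median log2 fold change of the set stayed between 0.23 and 0.47 over all alternatives. Of 18 named peaks that were called, 3 kept the call without Day 0 replicate c and 7 without Day 28 replicate 1, and no called named peak changed direction in any alternative. FET4, which was not called, had 0.23 and, after loess, -0.01. DAL4 lost its call with DESeq2, IMD2 after loess, and YFL067W with total counts. The 87 peaks shared with the loess set were compared between Day 28 and Day 0 as an alternative chosen after seeing the data. After loess in that comparison as well, 41 were higher and 1 lower, with a median of 0.38. No paired analysis was possible because the libraries of Day 0 (b and c) and Day 28 (1 and 2) share no replicate label. Shallow peaks limit the comparison, since the median standard error was 0.16 in the set and 0.11 over all peaks.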

Other observations

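The peaks named here were chosen after their values were seen. Of the 10 peaks of the set in which the Day 28 libraries lay below those of Day 0 without overlap, only ADR1 was called. The others were MAL33, an activator of maltose genes (log2 fold change -0.43, adjusted p = 0.0898 from edgeR), GAL2 (-0.29), RPS4B, a ribosomal protein of the small subunit (-0.24), PLM2 (-0.23), DIN7, a nuclease induced by DNA damage (-0.20), ATG10, an enzyme of autophagy (-0.17), IOC4, a subunit of a chromatin remodeler (-0.13), BGL2, a glucanase of the cell wall (-0.11), and HRP1, an RNA-binding protein (-0.08).

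The 100 peaks with a Day 7 high by the opposite rule had a median of -0.33 for Day 28 over Day 0 (log2). In edgeR at an adjusted p under 0.05, 30 were lower and 0 higher, against 4.30% and 4.52% of all peaks. At an unadjusted p under 0.05, 63 of them were lower and 1 was higher, against 11.3% and 13.6% of all peaks. That rule asks for Day 10 below Day 7, and Day 28 lay near Day 10 (median log2 ratio of 0.01). These counts are therefore not free of the choice.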
